A study of Mus musculus with 6 samples.

Results

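Glul, Oat, Slc1a2, Rhbg, Lhpp, Lgr5, Axin2, Rnf43, Znrf3 and Tbx3 were examined as a set of 10 genes that hepatocytes around the central vein of the mouse liver are known to express under Wnt signals. The members were taken by gene symbol, and all 10 were among the 21983 genes of the count table. Of these, 9 passed the filter on low counts and were tested, while Slc1a2 did not. RNA of whole liver was sequenced from 6 C57BL/6 mice, all of which had drunk thioacetamide (TAA), a hepatotoxin that scars the liver, at 400 mg/L for 16 weeks. The 3 mice labelled Lrat-Cre; Prmt1f/f (numbers 49, 82 and 88, called knockout mice here) carried floxed Prmt1 alleles and Cre under Lrat control, which in liver acts in hepatic stellate cells, so the hepatocytes that express the 10 genes were not the cells the driver is meant for. The 3 mice labelled Prmt1f/f (42, 83 and 90, called control mice here) carried the floxed alleles without Cre. No mouse was free of TAA, so no value here speaks to the effect of TAA on these genes. An age of 10 weeks is given for all mice, and the time point meant by it is not stated. Each library comes from a separate mouse.

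Endothelial cells of the central vein secrete Wnt ligands and R-spondins, which stabilise beta-catenin in the adjacent hepatocytes. Beta-catenin with TCF factors then drives genes of glutamine synthesis and ammonium capture, together with feedback regulators of the pathway itself. TAA is made toxic by enzymes of these same pericentral hepatocytes, so their genes are among those that this injury touches first. In RNA of whole liver, fewer cells of a type and less RNA per cell cannot be told apart, and the position of a hepatocyte in the lobule is not seen.

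Libraries held between 13303884 and 16462278 counts, of which the 10 genes took between 4008 and 6617 per mouse. Prmt1 itself averaged 28.8 ± 6.11 CPM (counts relative to the TMM-scaled library size) in knockout livers and 44.4 ± 5.44 CPM in control livers (SD, n = 3 each). Its log2 fold change of knockout over control was -0.62 (SE 0.20). The adjusted p was 0.347 with edgeR, 0.166 with DESeq2 and 0.352 with limma-voom, so none of these tools called it at 0.05. With edgeR's quasi-likelihood test 0 of 13153 genes passed an adjusted p of 0.05, and so did 0 with limma-voom, while DESeq2 called 238. Unadjusted, 1448 genes had an edgeR p under 0.05. The numbers of mice 49 and 42 lie below 80 and those of the other 4 above it, while the labels name no batch.

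The sequences before the start sites of 3 members are shown because their levels set the range of the results: Glul was the most abundant member in control livers, Oat had the largest fold change, and Slc1a2 was close to the limit of detection. RefSeq windows of 300 bases, with 250 bases before and 50 after the start site, were on hand for 5 of the 10 members (GRCm38.p6; 6 windows, with 2 for Rnf43). Capitals mark CTTTGA, the core letters that TCF factors bind, on either strand. They are given 5′ to 3′ in the sense of the gene, from chr1:153899679-153899978 (plus strand), chr7:132576349-132576648 (minus strand) and chr2:102706188-102706487 (plus strand).
Glul: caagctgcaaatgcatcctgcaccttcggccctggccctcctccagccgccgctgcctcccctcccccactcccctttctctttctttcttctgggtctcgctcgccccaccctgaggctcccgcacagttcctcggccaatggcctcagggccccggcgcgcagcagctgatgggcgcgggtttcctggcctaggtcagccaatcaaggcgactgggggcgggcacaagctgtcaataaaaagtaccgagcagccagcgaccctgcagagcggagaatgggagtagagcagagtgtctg
Oat: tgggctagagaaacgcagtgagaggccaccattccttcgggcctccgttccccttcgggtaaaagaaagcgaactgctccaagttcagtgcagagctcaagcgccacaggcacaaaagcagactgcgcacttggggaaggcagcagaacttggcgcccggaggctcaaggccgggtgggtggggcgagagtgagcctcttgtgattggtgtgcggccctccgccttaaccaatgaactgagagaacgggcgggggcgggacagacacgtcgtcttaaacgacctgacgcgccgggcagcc
Slc1a2: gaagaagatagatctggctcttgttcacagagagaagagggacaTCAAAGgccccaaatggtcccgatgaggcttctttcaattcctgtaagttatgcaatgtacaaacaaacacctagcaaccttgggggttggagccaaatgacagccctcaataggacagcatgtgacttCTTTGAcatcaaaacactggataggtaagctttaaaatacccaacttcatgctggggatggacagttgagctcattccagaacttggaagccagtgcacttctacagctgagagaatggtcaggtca
The Slc1a2 window, which lies inside the longer GENCODE gene at a downstream start, held CTTTGA once on the sense strand, 77 bases before the start, and once on the other strand. The match on the other strand also has the letters of the longer CTTTGAT. No match was in the windows of Glul, Oat, Axin2 or Rnf43. CTTTGA occurred in 16% of all 32851 RefSeq windows of this length and CTTTGAT in 3.73%. These letters are a description of short windows and say nothing about binding elsewhere, where the known Wnt-responsive elements of such genes can lie.

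Per kilobase of merged exons (GENCODE M21, GRCm38), the 10 genes covered a wide range of levels. In knockout livers Oat averaged 60.7 ± 33.9 and Glul 41.0 ± 7.46 CPM per kb, against 20.4 ± 10.0 and 52.1 ± 8.52 CPM per kb in control livers (SD, n = 3 each). Below them came Rnf43, at 4.94 ± 0.518 CPM per kb in knockout and 4.25 ± 2.02 in control livers. Tbx3, Axin2 and Lhpp lay within the spread of Rnf43 in control livers, at 3.30 ± 1.82, 3.21 ± 0.969 and 2.77 ± 1.73 CPM per kb. Znrf3 followed with 2.79 ± 0.230 in knockout and 1.86 ± 0.111 CPM per kb in control livers. Lgr5, at 0.519 ± 0.0939 against 0.466 ± 0.0471 CPM per kb, and Rhbg, at 0.298 ± 0.179 against 0.424 ± 0.246, were not apart beyond their spread within control livers. Slc1a2 was the lowest, at 0.0471 ± 0.0402 against 0.0218 ± 0.0149 CPM per kb. The merged exons of Slc1a2 span 13133 bases over all annotated transcripts, which lowers its value per kilobase.

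**Figure D1:**
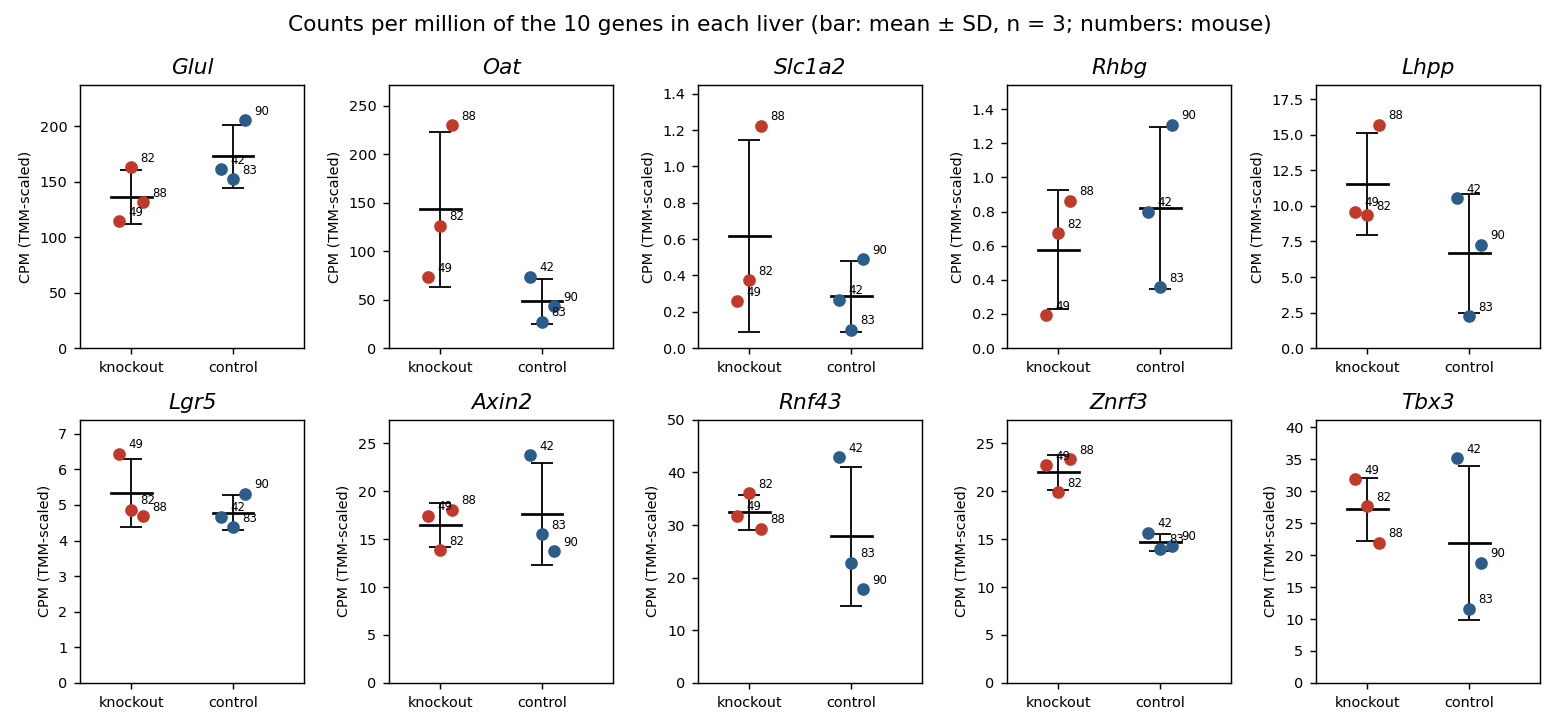
Level of each of the 10 genes in CPM (vertical axis of each panel, from 0) in 3 knockout and 3 control livers; points are mice with their numbers, bars are mean ± SD. Znrf3 is the gene whose 3 knockout points (19.9 to 23.3 CPM) all lie above its 3 control points (14.0 to 15.7 CPM), while the other 9 panels overlap.

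Among genes of nitrogen handling, Oat was higher and Glul lower in the mean of the knockout livers, and neither passed the test over all genes with edgeR. Glul encodes glutamine synthetase, which joins ammonium to glutamate and is confined to the hepatocytes nearest the central vein in healthy mouse liver. It lies on chromosome 1 from 153899944 to 153909723 on the plus strand. Its level was 114, 163 and 131 CPM in knockout mice 49, 82 and 88, against 161, 152 and 205 CPM in control mice 42, 83 and 90. Knockout mouse 82 lay among the control mice, so the groups overlapped. The log2 fold change of knockout over control was -0.34 (SE 0.21, 95% interval -0.83 to 0.14, adjusted p = 0.565 with edgeR).

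Oat encodes ornithine aminotransferase, a mitochondrial enzyme that passes the nitrogen of ornithine to glutamate (chromosome 7, 132557478 to 132576398, minus strand). Knockout mice 49, 82 and 88 had 72.9, 126 and 230.2 CPM, and control mice 42, 83 and 90 had 73.8, 27.3 and 43.4 CPM. Knockout mouse 49 and control mouse 42 were nearly equal and were the pair that made the groups overlap, while the other 2 knockout mice lay above every control mouse. The mean was 143 ± 79.9 CPM in knockout and 48.2 ± 23.6 CPM in control livers (SD, n = 3 each), with a log2 fold change of 1.57 (SE 0.46, 95% interval 0.52 to 2.62). Its adjusted p was 0.323 with edgeR, 0.344 with limma-voom and 0.0336 with DESeq2, the one tool that called it. Without knockout mouse 88 the log2 fold change was 1.03. The ratio of Oat to Glul counts within a mouse does not depend on the scaling of libraries. It was 0.639, 0.775 and 1.75 in knockout mice 49, 82 and 88, against 0.457, 0.179 and 0.212 in control mice 42, 83 and 90, without overlap. This pair was picked from 36 possible pairs after the values were seen, and it was not tested.

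Lhpp, a histidine and pyrophosphate phosphatase, starts 34.2 kb from Oat on chromosome 7, with 1 protein-coding gene in between. It had 9.59, 9.37 and 15.7 CPM in knockout mice 49, 82 and 88, against 10.5, 2.24 and 7.28 CPM in control mice 42, 83 and 90. As for Oat, knockout mouse 88 was the highest and control mouse 83 the lowest of the 6 mice. The groups overlapped through control mouse 42, which lay above knockout mice 49 and 82. Its log2 fold change was 0.80 (SE 0.49, 95% interval -0.32 to 1.92, adjusted p = 0.565 with edgeR), 0.37 without control mouse 83 and 1.31 without control mouse 42.

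Both transporters of the set were detected at a few counts per library. Slc1a2 encodes the glutamate transporter GLT-1, which supplies glutamate to glutamine synthetase. It had 4, 5 and 17 counts in knockout mice 49, 82 and 88, against 4, 2 and 6 counts in control mice 42, 83 and 90. The groups overlapped, and knockout mouse 88 held most of the knockout counts. The scaled ratio of the summed counts, 26 in knockout and 12 in control livers, was 2.38 with a 95% counting interval from 1.16 to 5.17 that does not cover the spread between mice. Without mouse 88 it was 1.22, from 9 counts in the other 2 knockout mice. With no filter on low counts its adjusted p was 0.667 with edgeR.

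Rhbg encodes an ammonium transporter of the Rhesus family. It had 3, 9 and 12 counts in knockout mice 49, 82 and 88, against 12, 7 and 16 counts in control mice 42, 83 and 90. The groups overlapped over most of their range (log2 fold change -0.48, SE 0.70, 95% interval -2.05 to 1.10, adjusted p = 0.808 with edgeR). The level of Rhbg is uncertain, because 1190 of its 1937 exon bases also belong to the GENCODE gene Gm38392 on the same strand. That gene was listed with 0 counts in the 6 mice together, and how reads of overlapping genes were counted is not given in the sources used here.

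Among the receptor and feedback genes, Znrf3 was higher in each knockout liver than in any control liver with TMM scaling, a separation that was lost with scaling to hepatocyte genes (log2 fold change 0.24), and Lgr5, Axin2, Rnf43 and Tbx3 overlapped. Znrf3 and Rnf43 encode related membrane ubiquitin ligases that remove Frizzled receptors from the cell surface and are themselves induced by Wnt signals. Znrf3 (chromosome 11, 5276324 to 5444847, minus strand) had 22.7, 19.9 and 23.3 CPM in knockout mice 49, 82 and 88, against 15.7, 14.0 and 14.3 CPM in control mice 42, 83 and 90. The highest mouse had 1.17 times the level of the lowest within the knockout group and 1.12 times within the control group, the smallest such ratios of the 9 genes tested. Knockout livers averaged 22.0 ± 1.82 CPM and control livers 14.7 ± 0.876 CPM (SD, n = 3 each), a log2 fold change of 0.59 (SE 0.18, 95% interval 0.19 to 0.98). Its adjusted p was 0.323 with edgeR, 0.117 with DESeq2 and 0.344 with limma-voom, so it was not called by these tools. With TMM scaling its log2 fold change stayed between 0.52 and 0.64 with each mouse left out in turn.

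Rnf43 (chromosome 11, 87662722 to 87735539, plus strand) did not share this separation. It had 31.8, 36.0 and 29.3 CPM in knockout mice 49, 82 and 88, against 42.9, 22.8 and 17.8 CPM in control mice 42, 83 and 90. Both extremes of the 6 mice, 42 at the top and 90 at the bottom, were control mice, so the knockout values lay inside the control range. With edgeR the log2 fold change came to 0.22 (SE 0.30, 95% interval -0.47 to 0.91, adjusted p = 0.799), but -0.052 without control mouse 90 and 0.67 without control mouse 42.

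Axin2 encodes a scaffold of the complex that degrades beta-catenin and is widely used as a readout of Wnt signalling. It had 17.4, 13.9 and 18.1 CPM in knockout mice 49, 82 and 88, against 23.7, 15.5 and 13.7 CPM in control mice 42, 83 and 90. The groups overlapped, with both the highest and the lowest value in control mice. Axin2 had a log2 fold change of -0.10 (SE 0.25, 95% interval -0.67 to 0.46, adjusted p = 0.893 with edgeR), and 0.17 without control mouse 42. The ratio of Axin2 to Znrf3 counts was 0.768, 0.695 and 0.775 in knockout mice 49, 82 and 88, against 1.51, 1.11 and 0.96 in control mice 42, 83 and 90. That pair, too, was chosen after the values were seen and was not tested.

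Lgr5, a receptor for R-spondins that marks the hepatocytes at the central vein in healthy mouse liver, had 6.44, 4.87 and 4.68 CPM in knockout mice 49, 82 and 88. Control mice 42, 83 and 90 had 4.67, 4.37 and 5.32 CPM. Apart from knockout mouse 49 the mice lay close together and the groups overlapped. Lgr5 had a log2 fold change of 0.16 (SE 0.27, 95% interval -0.46 to 0.78, adjusted p = 0.837 with edgeR), and 0.00 without mouse 49. Tbx3, a T-box transcription factor, had 31.9, 27.7 and 22.0 CPM in knockout mice 49, 82 and 88, against 35.2, 11.6 and 18.8 CPM in control mice 42, 83 and 90. The control mice spanned a 3.02-fold range that contained every knockout value. Its log2 fold change of 0.31 (SE 0.36, 95% interval -0.51 to 1.14, adjusted p = 0.752 with edgeR) was 0.01 without control mouse 83 and 0.84 without control mouse 42.

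**Figure D2:**
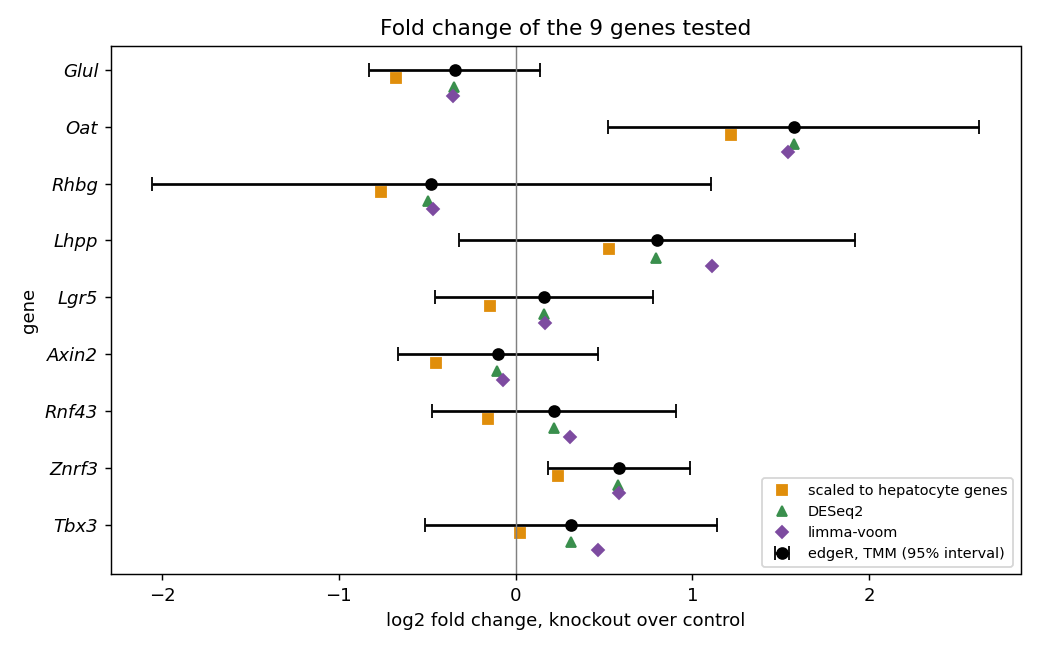
Log2 fold change of knockout over control (horizontal axis) of the 9 genes tested: black points and bars are edgeR with TMM scaling and its 95% interval, squares the same fit scaled to hepatocyte genes, triangles DESeq2 and diamonds limma-voom. The unadjusted intervals of Oat (0.52 to 2.62) and Znrf3 (0.19 to 0.98) lie above 0, the other 7 span it, and the squares lie to the left of the black points.

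Across the 9 genes tested, 6 had a positive and 3 a negative log2 fold change, with a median of 0.22, beside a median of -0.02 over all genes tested. The median was -0.15 when libraries were scaled to hepatocyte genes, as described next, and 0.64 without control mouse 42. At an adjusted p of 0.05 edgeR called 0 of the 9, beside 0% of all genes, and DESeq2 called 1, Oat, higher, beside 1.81% of all genes (0.875% higher and 0.936% lower). Unadjusted edgeR p-values lay under 0.05 for 2 of the 9, Oat and Znrf3, both higher, beside 11.0% of all genes in either direction, 5.06% higher and 5.95% lower. Both were known from earlier results of these data, so their count is not independent evidence. Groups were separate in 1 of the 9, Znrf3, higher, beside 16.9% of all genes (8.94% higher and 7.95% lower). Without control mouse 42 they were separate in 5 of the 9 (Oat, Lhpp, Rnf43, Znrf3 and Tbx3, each higher in knockout mice). With that mouse left out, 38% of all genes were separate in either direction and 20% were separate and higher.

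The members did not move as a block from mouse to mouse. Among control livers, mouse 42 had the highest values of all 6 mice for Axin2, Rnf43 and Tbx3. Control mouse 83 had the lowest values for 5 of the 9 genes, namely Oat, Lhpp, Lgr5, Znrf3 and Tbx3. Among knockout livers, mouse 88 was the highest of the 6 mice for Oat, Lhpp and Znrf3, whereas mouse 49 was the lowest for Glul and Rhbg. With 0.5 added to CPM before log2, the standard deviation was larger among control than among knockout mice in 5 of the 9 genes. Rhbg was 1 of these, at 0.541 against 0.513. In CPM without that addition, its ratio of highest to lowest mouse was larger in the knockout group (4.48 against 3.68). By the root mean square difference of mean-centred log2 CPM over the 6 mice, the closest pairs were Lgr5 with Znrf3 (0.27), Glul with Rhbg (0.30) and Axin2 with Rnf43 (0.31). This distance is not adjusted for how much each gene varies, so genes that vary little can be close without moving together. Lgr5 and Znrf3 lay on opposite sides of their means in knockout mouse 88 (-0.09 and 0.37). Oat and Lhpp, at a distance of 0.49, shared their highest and their lowest mouse. Rhbg lay between 0.193 and 1.31 CPM, where the 0.5 added before log2 narrows its differences between mice. The distance of 0.30 between Glul and Rhbg therefore depends on that addition. The pair farthest apart was Glul with Oat (1.11), a distance that includes the wide range of Oat itself, from -1.45 to 1.60. By the same measure, the 3 genes nearest to Glul among 12441 genes with at least 1 CPM were Nudt1 (0.08), Cldn3 (0.08) and Jrkl (0.09).

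**Figure D3:**
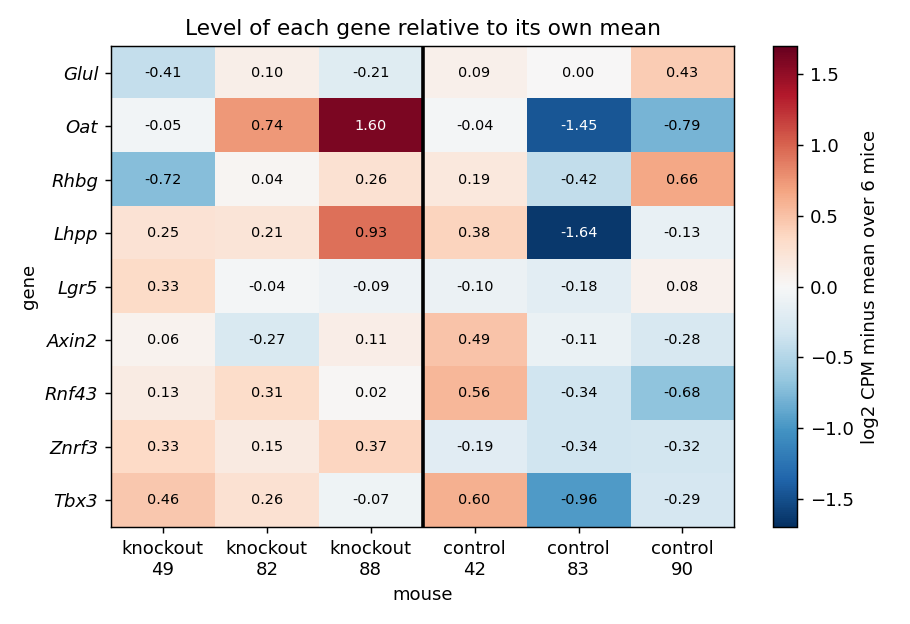
Log2 CPM of the 9 genes tested (rows) in each mouse (columns, knockout left of the black line, control right), centred on the mean of each gene over the 6 mice; red is above and blue below that mean, and the numbers are the plotted values. Oat spans from 1.60 in knockout mouse 88 to -1.45 in control mouse 83, while Glul stays between -0.41 and 0.43.

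Markers of other cell types and of hepatocytes in general differed among the same mice. A list of 22 hepatocyte genes without strong zonation, such as Alb and Apoa1, was detected and tested in full. Its summed level was 116711 to 142323 CPM in knockout livers and 93636 to 150213 CPM in control livers, with control mouse 83 lowest and control mouse 90 highest. Alb alone made up 55389 to 81552 CPM of these sums. By the mean log2 level of the list relative to the control mean, knockout mouse 82 was highest (0.464). Knockout mouse 88 (0.405) and control mouse 90 (0.401) came next, and control mouse 83 was again lowest (-0.385). All 22 were present, and 18 had a positive log2 fold change (median 0.29). Bile duct markers were highest in control mouse 83 (summed level 494 to 966 CPM in knockout and 678 to 1539 CPM in control livers, 12 genes tested). Spp1 alone made up 237 of 494 CPM in knockout mouse 49 and 1114 of 1539 CPM in control mouse 83. By the mean log2 level of the list relative to the control mean, control mouse 83 was also highest (0.560). Stellate cell markers had a summed level of 530.7 to 1022 CPM in knockout and 1482 to 1605 CPM in control livers, and 16 of 17 had a negative log2 fold change. When libraries were scaled to the 22 hepatocyte genes, the median of all genes moved to -0.37. Glul was then at -0.68 with all 3 knockout mice below all 3 control mice (adjusted p = 0.315 with edgeR), Oat at 1.22 (adjusted p = 0.144) and Znrf3 at 0.24 (adjusted p = 0.738). Groups were separate in 17.8% of all genes with that scaling, 1.27% higher and the rest lower. Relative to that scale Lgr5 (-0.15) and Rnf43 (-0.15) turned negative, and Axin2 was at -0.45. The part of cell composition in the levels of the members was not tested.

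Upstream of the members, the Wnt ligands and R-spondins of the central vein showed no separation. The ligand Wnt2 had 7.15, 5.32 and 3.68 CPM in knockout mice 49, 82 and 88, against 5.13, 3.40 and 7.12 CPM in control mice 42, 83 and 90. Wnt9b, the other main ligand of central vein endothelium, had 5.34, 6.37 and 6.12 against 5.80, 3.56 and 2.94 CPM (log2 fold change 0.53, SE 0.32, adjusted p = 0.558 with edgeR). Rspo3, the R-spondin that sustains the pericentral programme, had 6.57, 7.34 and 6.70 against 6.93, 6.00 and 10.5 CPM. The groups overlapped in each of these. Of 25 ligand and secretion genes, 12 were tested, 6 with a positive and 6 with a negative log2 fold change (median -0.00). Wnt5b, a ligand, was at 0.41 (SE 0.24) with overlapping groups. Wnt7b, another ligand, had the smallest p, at 0.451, 1.05 and 1.08 CPM in knockout mice against 1.87, 4.62 and 2.62 CPM in control mice (log2 fold change -1.83, SE 0.51, adjusted p = 0.323 with edgeR). Its groups did not overlap, but the level was low, with 7, 14 and 15 counts in knockout mice and 28, 91 and 32 in control mice. The 12 markers of central vein endothelium were present, with a summed level of 107 to 143 CPM in knockout and 102 to 139 CPM in control livers.

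Of 17 receptor genes 13 were tested, 8 with a positive log2 fold change (median 0.24). Lgr4, the R-spondin receptor related to Lgr5, had 63.0, 73.2 and 76.7 CPM in knockout mice, against 55.9, 44.7 and 47.6 CPM in control mice. With TMM scaling its groups did not overlap (log2 fold change 0.52, SE 0.17, adjusted p = 0.347 with edgeR). Of all genes, 8.94% were separate and higher with TMM scaling and 1.27% with scaling to hepatocyte genes. Fzd4, a Frizzled receptor, was at 0.65 (SE 0.27) with overlapping groups. Of 21 beta-catenin transducers tested, 14 were positive and 7 negative (median 0.08), and 0 had an unadjusted p under 0.05 in edgeR. Ctnnb1, which encodes beta-catenin, was at 0.08 (SE 0.21), and it was named for its role after the values were seen. Tcf7, a TCF factor (-0.37, SE 0.25), and Pygo1, a beta-catenin cofactor (-0.70, SE 0.49), had the smallest p of that list.

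Secreted and intracellular Wnt inhibitors held genes on both sides. Notum is a hydrolase that inactivates Wnt ligands and is itself a Wnt target in pericentral hepatocytes of mice. It had 31.7, 40.9 and 42.3 CPM in knockout mice, against 27.8, 12.9 and 17.2 CPM in control mice. With TMM scaling its groups did not overlap (log2 fold change 0.99, SE 0.28, adjusted p = 0.323 with edgeR). Nkd2, an inhibitor of Dishevelled, was lower in each knockout mouse, at 1.48, 2.32 and 3.24 CPM against 4.40, 7.67 and 3.60 CPM (-1.16, SE 0.42, adjusted p = 0.381 with edgeR). Nkd1, its homologue and a common Wnt target, was also lower, at 5.02, 6.37 and 5.62 against 7.87, 10.2 and 8.75 CPM (-0.66, SE 0.24, adjusted p = 0.384 with edgeR; named after its values were seen). Of the 9 inhibitors tested, 3 were positive and 6 negative (median -0.33). Of 13 reported Wnt target genes tested outside the members, 3 were positive and 10 negative (median -0.27). This list overlaps the previous ones, as it counts Notum, Nkd1 and Tcf7 again. Cd44, a cell surface glycoprotein of many cell types, was at -0.97 (SE 0.33) in that list.

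**Figure D4:**
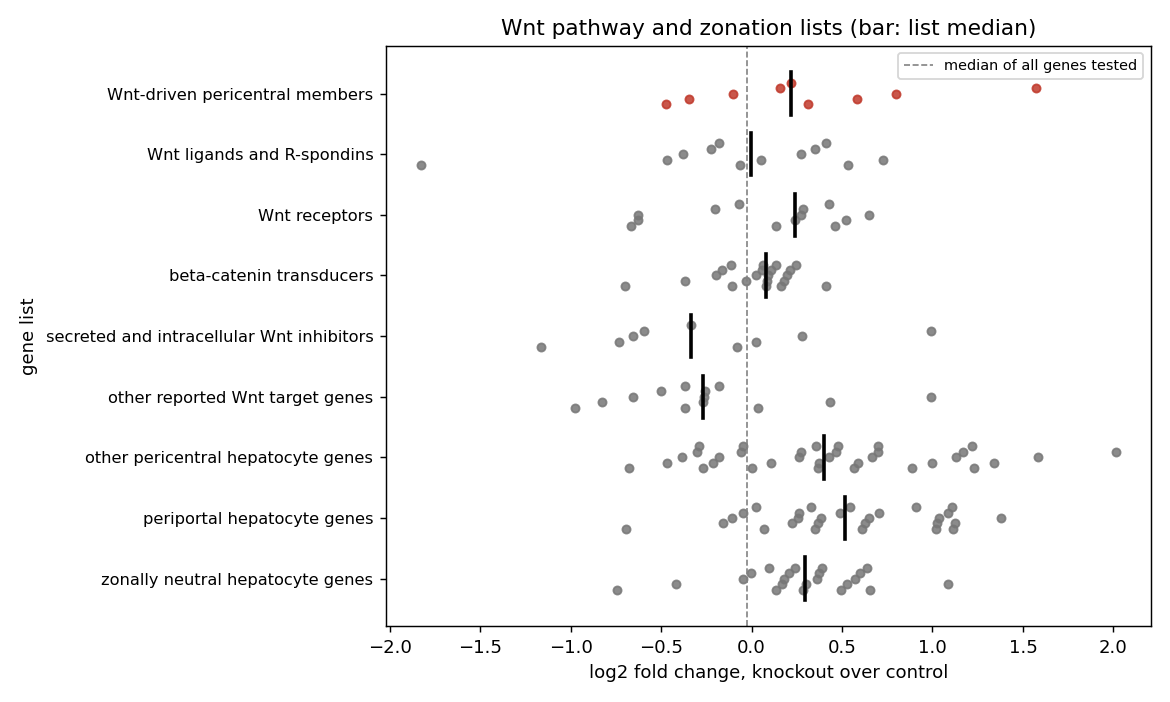
Log2 fold change of knockout over control (horizontal axis) for the genes tested in each list (rows): red points are the 9 members, grey points the genes of the other lists, black bars list medians and the dashed line the median of all genes (-0.02). Medians are 0.22 for the members, 0.40 for other pericentral, 0.52 for periportal and 0.29 for zonally neutral hepatocyte genes.

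Other genes of the pericentral zone had a larger median than the members, and so did genes of the opposite, periportal zone. The zonally neutral hepatocyte genes had a median of 0.29. The list of other pericentral genes was not divided by dependence on Wnt signals, so it is no contrast to Wnt-driven genes. Of 34 other pericentral genes, 23 had a positive log2 fold change (median 0.40). DESeq2 called 5 of them, all higher, beside 0.875% of all genes called higher. Nr1i3, the nuclear receptor CAR, was at 1.34 (SE 0.28, adjusted p = 0.227 with edgeR) and Cyp2c37, a cytochrome P450, at 2.01 (SE 0.51, adjusted p = 0.291). Of 28 periportal genes, 24 were positive (median 0.52), and DESeq2 called 7, all higher, beside the same 0.875% of all genes. Hal, which degrades histidine, was at 1.02 (SE 0.26) and Gls2, the liver glutaminase, at 1.11 (SE 0.31). The differences between these medians were not tested.

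Around the nitrogen enzymes, 13 of 21 tested neighbours in metabolism, Lhpp among them, had a positive and 8 a negative log2 fold change (median 0.12). Gpt, alanine aminotransferase, had 423, 659 and 669.8 CPM in knockout mice, against 314, 309 and 334 CPM in control mice (log2 fold change 0.87, SE 0.24, adjusted p = 0.322 with edgeR and 0.0194 with DESeq2). Slc1a4, a neutral amino acid transporter of the same family as Slc1a2, was lower without overlap, at 7.79, 6.59 and 6.92 against 15.2, 17.9 and 18.4 CPM (-1.27, SE 0.20). Its adjusted p was 0.18 with edgeR and 7.2e-05 with DESeq2. Aldh18a1, which makes the pyrroline intermediate that Oat also forms, was at -0.93 (SE 0.26, adjusted p = 0.323 with edgeR), and it was named after its values were seen.

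**Figure D5:**
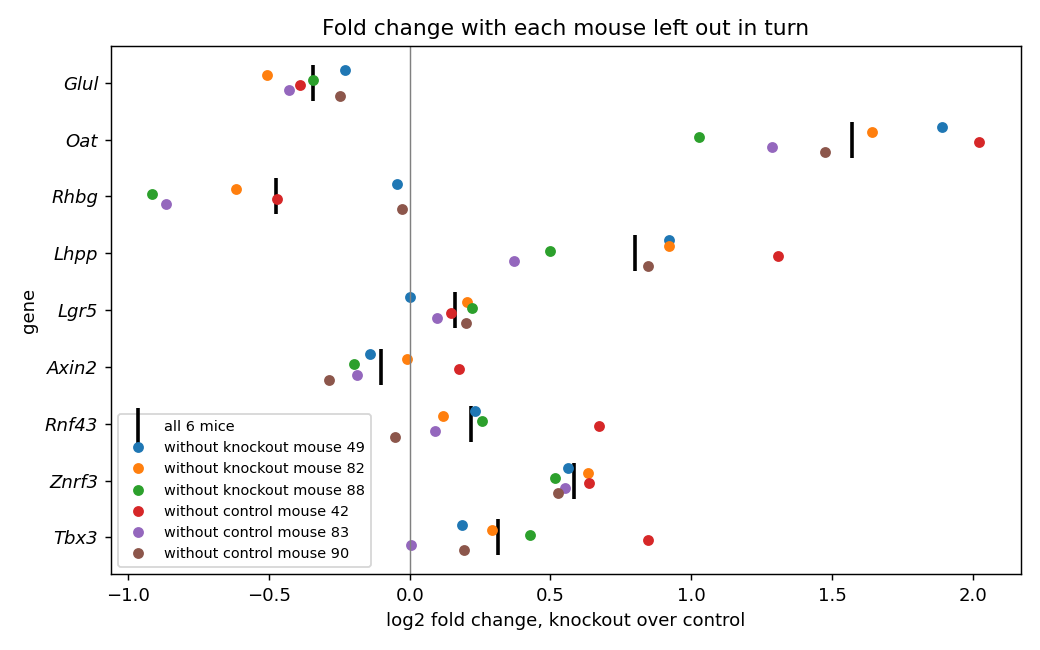
Log2 fold change of knockout over control (horizontal axis) of the 9 genes tested with all 6 mice (black ticks) and with each mouse left out in turn (coloured points). Znrf3 stays between 0.52 and 0.64, whereas leaving out control mouse 42 moves Tbx3 to 0.84 and Rnf43 to 0.67.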

How the data were processed

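The authors deposited raw counts per gene symbol for whole liver of 6 mice in a single table; per the submitters' processing notes, Trimmomatic, FastQC, STAR, HTSeq and build mm10 were used, without versions. Annotation, strand setting and the treatment of shared reads: not given in the sources used here. Reads of antisense and overlapping genes therefore cannot be told apart. Mice were grouped by the sample titles and columns by mouse number. Counts were filtered with filterByExpr (minimum count 10), leaving 13153 genes. They were scaled by TMM and fitted with edgeR 4.0.16 under R 4.3.3 (quasi-likelihood test, genotype as the only term, Benjamini-Hochberg adjustment over all genes at 0.05). Log2 patterns used CPM plus 0.5. The test was run on counts simulated with the spread estimated from these same mice, which is no check of that spread.

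The alternatives were RLE or no scaling, scaling to 22 hepatocyte genes, the 20 most abundant genes left out, other filters, DESeq2 1.42.0, limma-voom (limma 3.58.1), a robust fit, a term for mouse number under or over 80, and each mouse left out. The members and the lists were chosen with earlier results of these data known. Named genes were the 10 members, 2 genes of smallest p per list, Wnt2, Wnt9b, Rspo3, Prmt1 and the 3 genes nearest to Glul; exceptions are stated, and 1 gene that the rule names is not reported here. Positions come from GENCODE M21 (GRCm38, the assembly of mm10), which 21896 symbols matched once. The labels describe separate mice. Intervals from counts cover counting error only.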

Additional observations from a re-analysis of the deposited data

How the results depend on the processing

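No paired analysis was possible because the mouse numbers are not shared between genotypes. Over the 9 genes tested and 16 other settings, 138 log2 fold changes kept their direction and their side of the threshold. Oat alone crossed it, with DESeq2, which made 1 call among the members. The sign turned for Lgr5 (-0.15) and Rnf43 (-0.15) with scaling to hepatocyte genes, for Rnf43 without control mouse 90 and for Axin2 without control mouse 42; with one mouse left out Rnf43 ranged from -0.052 to 0.67 and Axin2 from -0.29 to 0.17. The member median was -0.15 with scaling to hepatocyte genes and ranged from 0.091 (without control mouse 83) to 0.64 (without control mouse 42) with one mouse left out. With total counts only, groups were separate in 2 genes, Glul (lower) and Znrf3 (higher), beside 17.4% of all genes (3.6% higher, the rest lower). The median of all genes then moved to -0.17. With scaling to hepatocyte genes 1 gene, Glul, was separate and lower, and Znrf3 was not separate, beside 17.8% of all genes (1.27% higher, the rest lower). With one mouse left out 1 to 5 genes were separate. Without control mouse 42 there were 5, all higher (38% of all genes, 20% higher). Without knockout mouse 49 there were 2, Oat and Znrf3, both higher (33.1% of all genes, 15.9% higher). Without knockout mouse 82 there were 2, Glul (lower) and Znrf3 (higher), beside 22.1% of all genes (10.5% higher). Genes called over the whole table numbered 98 (7 higher, 91 lower) with scaling to hepatocyte genes, 4 with no low-count filter, 238 with DESeq2 (115 higher, 123 lower), 6 with a term for mouse number, 3 at an adjusted p of 0.10 and 0 to 13 with one mouse left out, 13 of them without knockout mouse 49. The cause was not tested. Depth limits Slc1a2 and Rhbg, which had at most 17 and 16 counts in a mouse.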

Other observations

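Lists of cells that could add RNA of their own to the bulk levels were also measured. Of 15 endothelial markers, 5 had a positive and 10 a negative log2 fold change (median -0.07), Lyve1 (-0.92, SE 0.44) and Egfl7 (-0.32, SE 0.20) having the smallest p. Of 13 macrophage markers tested, 6 were positive and 7 negative (median -0.33), with Itgax at -0.96 and Marco, a scavenger receptor, at 1.47. All 11 lymphocyte markers tested were negative (median -1.28), with Cd79a, a part of the B cell receptor, at -1.41 (SE 0.45). Their list had a summed level of 33.7 to 41.4 CPM in knockout livers, against 35.2, 70.5 and 82.1 CPM in control mice 42, 83 and 90. Control mouse 42 thus lay within the knockout range. All 5 neutrophil markers tested were negative too (median -2.17), Csf3r (-1.01) and S100a9 (-2.17) having the smallest p. The summed level of that list was 11.7 to 17.8 CPM in knockout livers, against 18.3, 53.0 and 85.3 CPM in control mice 42, 83 and 90.

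Proliferation genes had a negative log2 fold change in 12 of 12 (median -1.27). Of these, edgeR called 0 and DESeq2 called 2, beside 0.936% of all genes called lower with DESeq2. Top2a, a topoisomerase of dividing cells, had 8.50, 4.42 and 1.95 CPM in knockout mice 49, 82 and 88, against 14.9, 19.5 and 12.1 CPM in control mice 42, 83 and 90 (-1.64, SE 0.46, adjusted p = 0.323 with edgeR). Mki67 was at -1.40 (SE 0.40). In the bile duct list 2 of 12 were positive: Onecut1, a transcription factor that hepatocytes also express, was at 1.07 (SE 0.32), while Cldn4, a tight junction gene, was at -1.60 (SE 0.54). Among stellate cell markers Vipr1 (-0.83, SE 0.17) and Col3a1 (-1.58, SE 0.33) had the smallest p, among neutral hepatocyte genes Hrg (1.09, SE 0.34) and Hnf4a (0.65, SE 0.24), and among central vein markers Kit (0.48, SE 0.19) and Cdh13 (0.72, SE 0.33).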
